A study of Homo sapiens with 60 samples.

Results

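Cyclins and their partner kinase CDK1 were followed through 3 human breast cell lines under 4 treatments. The set held 10 of the 19775 genes with a value: the A-type cyclin CCNA2, the B-type cyclins CCNB1 and CCNB2, the D-type cyclins CCND1, CCND2 and CCND3, the E-type cyclins CCNE1 and CCNE2, the atypical cyclin CCNO, and CDK1, which older annotation calls CDC2. They were taken by gene symbol, with every probe set that carried only that symbol, which gave 24 of 54675 probe sets. RNA was measured on 60 Affymetrix expression arrays, 5 in each of 12 groups. HB4a is a line of normal breast epithelium. C5.2 is HB4a transfected with a full-length HER-2 cDNA, and no HB4a line with an empty vector was analysed here. SKBR3 is an adenocarcinoma line of the breast that overexpresses HER-2. Cells of each line were given the solvent DMSO (vehicle), 30 nM doxorubicin, 20 nM rapamycin, or the 2 drugs combined. Doxorubicin is an anthracycline that poisons topoisomerase II and breaks DNA, and rapamycin blocks the growth kinase complex mTORC1. The labels give no treatment time and do not say whether C5.2 is 1 clone. HB4a and C5.2 grew with insulin and hydrocortisone and SKBR3 without, at another seeding density, so line and culture condition cannot be told apart.

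A cyclin has no catalytic activity of its own: it binds and switches on a cyclin-dependent kinase, and its level rises and falls through the cell cycle. D-type cyclins carry growth signals to CDK4 and CDK6 and start the phosphorylation of the retinoblastoma protein. E-type cyclins with CDK2 then open S phase, cyclin A2 serves S phase and G2, and the B-type cyclins with CDK1 drive mitosis. Transcription of CCNA2, CCNB1, CCNB2 and CDK1 peaks late in the cycle, so their RNA in a culture is high where many cells are in S, G2 or M. In bulk RNA, fewer cells in those phases and less RNA per cell cannot be told apart. HER-2 signals through mTORC1 and ERK to cyclin D1 in breast epithelium.

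Levels below are log2 signals of the brightest probe set of each gene, differences are log2 differences of group means ± the standard error from limma, and each group held 5 arrays. A gene rose or fell where the adjusted p was under 0.05 in limma's test over all genes past a filter (log2 signal over 5 on at least 5 arrays of the fit). Of the 10 members, 7 passed this filter in HB4a (not CCND2, CCNE2 or CCNO), 6 in C5.2 (not CCND1, CCND2, CCNE2 or CCNO) and 8 in SKBR3 (not CCND2 or CCNE2). The arrays carry experiment numbers 1, 2, 3, 4 and 6. Where the residuals showed that equal numbers belong together, a second fit with the number as a block is quoted if it changed a call. The treatments of a line share its 5 vehicle arrays.

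Array medians lay between 1.41 and 1.71. The epithelial markers KRT8, KRT18 and KRT19 were over log2 5 on every array of every line, whereas CDH1, the adhesion protein E-cadherin, had a median of 0.40 in SKBR3 against 9.28 in HB4a. PTPRC, the defining leukocyte marker, lay at or under the array median on all 60 arrays. The other leukocyte markers did not all do so: CD3E had medians of 2.31 in HB4a, 2.14 in C5.2 and 2.13 in SKBR3, above the array median on every array, and CD14 medians of 2.45, 4.49 and 0.67. Of the fibroblast genes, COL1A2 and LUM lay at or under the array median on all 60 arrays. COL1A1 had medians of 4.26, 4.27 and 4.15, and DCN medians of 6.75 in HB4a, 5.35 in C5.2 and 1.30 in SKBR3. The part of CD14 and DCN in the differences between lines was not tested. ERBB2, the gene of HER-2, was over 5 on all arrays of each line, with highest values of 7.21 in HB4a, 12.23 in C5.2 and 11.87 in SKBR3. SKBR3 vehicle array 3 stood apart through genes that the other 4 vehicle arrays lacked, such as LGALS3 at 6.61 against at most 1.58. Leaving it out kept the direction and the call of all 53 member results that use SKBR3.

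In SKBR3, the mitotic kinase and its cyclins fell with rapamycin. CDK1 RNA read 8.79, 7.68, 8.20, 8.35 and 7.68 on the vehicle arrays and 6.94, 6.16, 6.77, 7.29 and 5.83 with rapamycin. The groups did not overlap, and in every experiment the rapamycin array was the lower one. CDK1 fell by 1.54 ± 0.30, which is 2.91-fold (adjusted p = 0.00101). CCNB1, the main cyclin of mitotic entry, read 8.46, 8.24, 8.53, 8.59 and 8.39 with vehicle and 6.91, 6.54, 7.26, 7.32 and 7.03 with rapamycin, again without overlap. It fell by 1.43 ± 0.12, or 2.69-fold (adjusted p = 6.07e-08).

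CCNB2, the B-type cyclin found at the Golgi, and CCNA2, the cyclin of S phase and G2, fell with them. CCNB2 lay between 7.35 and 7.67 with vehicle and between 6.27 and 6.63 with rapamycin, a fall of 0.99 ± 0.09 (adjusted p = 1.07e-07). CCNA2 read 7.18, 6.47, 7.01, 6.88 and 6.26 with vehicle and 5.27, 5.03, 5.40, 5.52 and 4.65 with rapamycin. It fell by 1.59 ± 0.20, the largest fall among the members tested there (adjusted p = 6.43e-06). The second probe set of CCNA2 fell by 1.73 ± 0.20 and that of CCNB1 by 1.33 ± 0.13, and the next 2 of CDK1 fell by 1.62 ± 0.29 and 1.64 ± 0.34, so each of these falls was read by more than 1 probe set. Of the 8 members past the filter, CCNO passed only through rapamycin-treated arrays and is described apart. Of the other 7, 6 fell with rapamycin in SKBR3, where 18.3% of all genes tested were called and 10.8% were called lower. The median difference of all 8 was -0.74, against -0.03 over all genes tested.

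**Figure D1:**
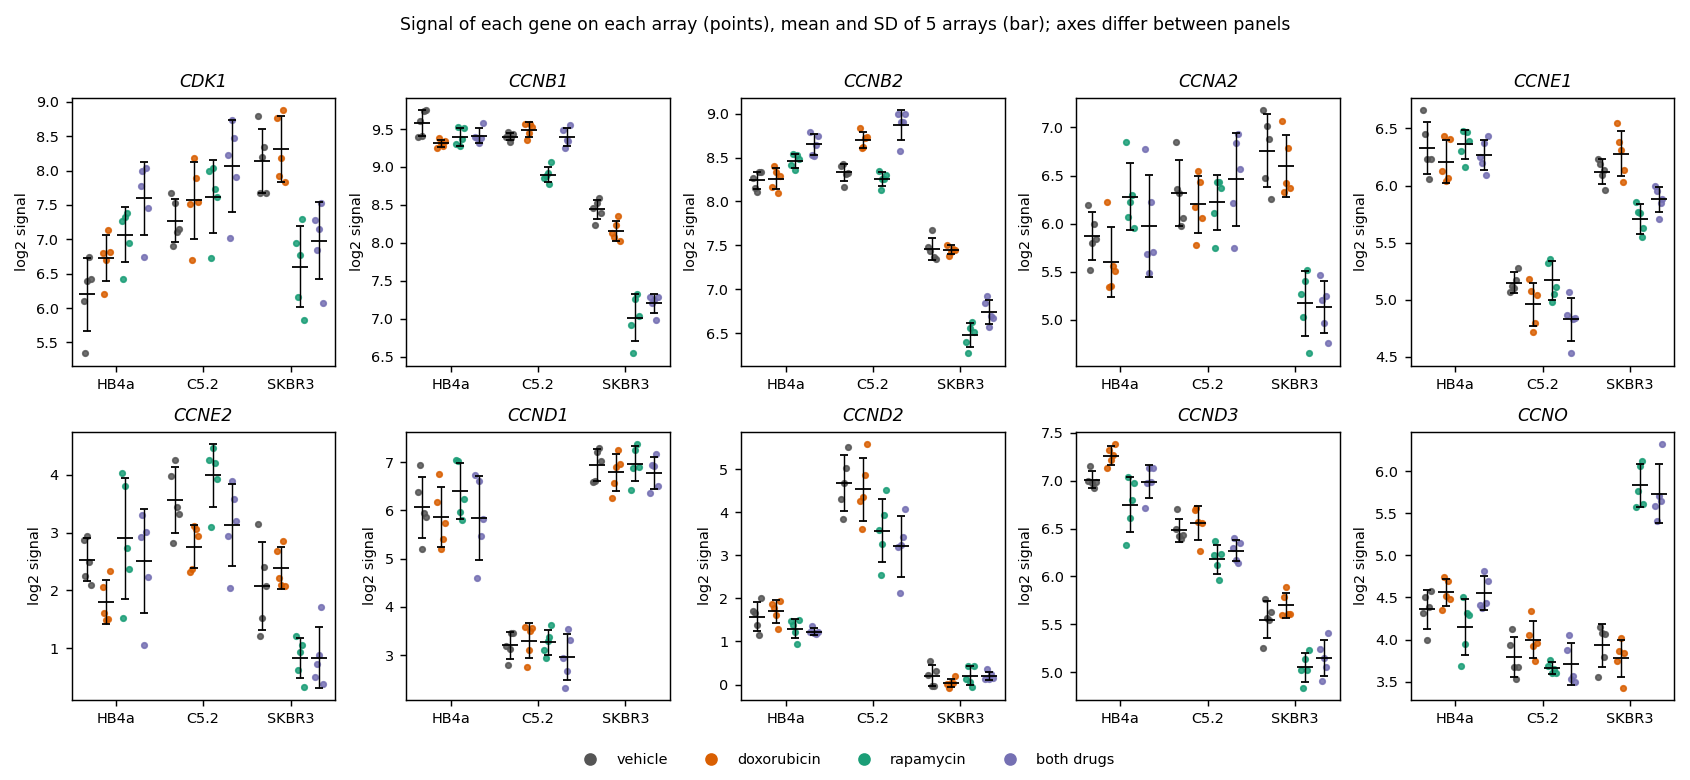
Log2 signal of the 10 genes on all 60 arrays: points are arrays, coloured by treatment and grouped by line along the x axis, and bars give the mean and SD of 5 arrays. In SKBR3 the rapamycin and combined groups of CDK1, CCNB1, CCNB2 and CCNA2 lie below vehicle and those of CCNO above it, while CCND2 is highest in C5.2, where CCND1 is lowest.

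These 4 genes are also known to share short promoter elements, the cell cycle homology region and CCAAT boxes, which recruit the late cell cycle transcription machinery, so the bases before their annotated starts are shown. RefSeq promoter windows (build GRCh38.p14) were found for 7 of the 10 members, and those of CCND1, CCND2 and CCNE2 were not. The last 120 bases before each start were searched on both strands for TTTGAA, for its variant TTTAAA, for the related word CTTGAA (all forms of the homology region) and for CCAAT. Matches are in capitals, on the gene's own strand 5′ to 3′. CDK1 has 2 annotated starts, and only 30 bases before the downstream one are printed.
CCNA2, chr4:121823884-121824003, minus strand: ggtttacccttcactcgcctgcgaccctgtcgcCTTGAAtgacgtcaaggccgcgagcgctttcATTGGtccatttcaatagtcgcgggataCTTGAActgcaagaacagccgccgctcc
CCNB1, chr5:69167030-69167149, plus strand: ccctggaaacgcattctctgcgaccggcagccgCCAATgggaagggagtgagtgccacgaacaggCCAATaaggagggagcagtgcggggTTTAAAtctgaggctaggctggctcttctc
CCNB2, chr15:59105026-59105145, plus strand: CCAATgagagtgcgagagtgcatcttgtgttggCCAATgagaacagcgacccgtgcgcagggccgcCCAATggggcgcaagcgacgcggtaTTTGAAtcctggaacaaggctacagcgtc
CDK1, chr10:60778448-60778477, plus strand: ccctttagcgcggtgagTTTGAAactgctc
CCNO, chr5:55233609-55233728, minus strand: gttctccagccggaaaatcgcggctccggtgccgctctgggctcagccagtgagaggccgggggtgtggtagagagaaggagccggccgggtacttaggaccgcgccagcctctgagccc

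In CCNA2, CCNB1 and CCNB2 the homology word nearest the start began at -28, -30 and -29, counting back from -1 just before the first transcribed base. CCAAT, read on either strand, began at -56 in CCNA2, at -87 and -55 in CCNB1, and at -120, -87 and -54 in CCNB2. The downstream CDK1 window held TTTGAA at -69 and -13 and the reverse form of CCAAT at -78 and -46. So all 4 genes held both kinds of word in 1 window each. Over all 35116 RefSeq windows, 13.3% held any of the 3 homology words in the same stretch, 20.4% held CCAAT and 2.86% held both kinds. CCNE1 held TTTAAA at -28 and no CCAAT, 1 of the 3 CCND3 windows held CCAAT alone, and both CCNO windows and the window of the upstream CDK1 start held none of the words. These are letter matches and not measured binding sites. The words were searched because these 4 genes are known to hold such elements, so the shares over all windows are no test of enrichment.

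Doxorubicin alone called 0 of the 8 members in SKBR3, where 0.837% of all genes tested were called. At an unadjusted p under 0.05 there was 1, CCNB1, with a difference of -0.28 ± 0.12 (limma adjusted p = 0.591), and limma without the intensity trend also called 0. CDK1 lay between 7.83 and 8.88 with doxorubicin, which overlaps the vehicle range. With both drugs in SKBR3, 5 of the 7 members other than CCNO fell, where 22.0% of all genes were called. CCNA2 fell by 1.63 ± 0.20, CCNB1 by 1.24 ± 0.12, CCNB2 by 0.72 ± 0.09 and CDK1 by 1.16 ± 0.30 (adjusted p = 7.28e-06, 5.11e-07, 9.15e-06 and 0.0096). The combined arrays of CDK1 read 7.28, 6.85, 7.15, 7.53 and 6.07, all under the lowest vehicle array.

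In the normal line HB4a these 4 genes did not follow SKBR3. With rapamycin, limma called 0 of 7 members (3.18% of all genes), although 4 had an unadjusted p under 0.05, and limma without the trend also called 0. CDK1 read 6.11, 5.34, 6.39, 6.75 and 6.42 with vehicle and 7.27, 6.42, 7.33, 7.38 and 6.95 with rapamycin. It was higher in each of the 5 experiments, by 0.87 ± 0.26 (adjusted p = 0.0752). With the experiment number as a block, which was borne out for this comparison, the fit called 4 of 7 members and 16.3% of all genes. That fit also held the HB4a combined arrays 2 and 3, whose residuals did not go with their own numbers in vehicle (r of -0.211 and -0.536). CDK1 was then higher (block adjusted p = 0.00917), CCNA2 higher by 0.41 (0.0149), CCNB2 higher by 0.22 (0.0479) and CCNB1 lower by 0.18 (0.0439). The second probe set of CCNB1 went the other way, 0.31 ± 0.12 higher (limma adjusted p without the block = 0.206). Without HB4a experiment 1 and rapamycin array 4, which stood apart, none of these 4 genes passed, with block adjusted p from 0.108 to 0.206.

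With both drugs CDK1 rose in HB4a, to 7.77, 7.99, 6.75, 8.04 and 7.46. The rise was 1.40 ± 0.26 (adjusted p = 0.000699), and only the array numbered 3 reached no higher than the top vehicle array. The combined arrays 2 and 3 each correlated with the other number in the other HB4a groups, so they are not read by experiment. The second and the third probe set of CDK1 rose by 1.14 each (adjusted p = 0.00485 and 0.00814). CCNB2 rose too, from between 8.11 and 8.34 with vehicle to between 8.52 and 8.79, by 0.40 ± 0.08 (adjusted p = 0.00173). These were 2 of 7 members, where 17.4% of all genes were called. With doxorubicin alone 1 of 7 members changed in HB4a (11.4% of all genes called): CCNB1 fell by 0.27 ± 0.08 (adjusted p = 0.0345), from between 9.39 and 9.75 to between 9.25 and 9.38. That call was lost in 7 of the 20 fits that left out 1 array, with adjusted p up to 0.0983 without vehicle array 6 (the others were vehicle arrays 2 and 4 and doxorubicin arrays 1, 3, 4 and 6), and for CCNB1, doxorubicin against vehicle in HB4a, it was also lost without the intensity trend (adjusted p = 0.0653). Its second probe set differed by 0.01 ± 0.12.

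In C5.2, which carries the HER-2 cDNA, CCNB1 fell with rapamycin and CCNB2 rose with doxorubicin. With rapamycin CCNB1 went from 9.40, 9.46, 9.33, 9.38 and 9.43 to 8.85, 8.88, 8.92, 8.78 and 9.06. No array overlapped, and the fall was 0.50 ± 0.07 (adjusted p = 0.000105). With both drugs CCNB1 read between 9.25 and 9.55, a difference of 0.00 ± 0.07 from vehicle, and was 0.50 ± 0.07 above rapamycin alone (adjusted p = 8.07e-05). CCNB2 was not called with rapamycin: it lay between 8.13 and 8.35 with rapamycin and between 8.17 and 8.43 with vehicle. It rose with doxorubicin, by 0.38 ± 0.08 (adjusted p = 0.0119), and with both drugs, by 0.55 ± 0.08 (adjusted p = 0.000108), where it read 9.0, 8.57, 8.90, 8.91 and 8.99.

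Counted over the members, rapamycin called 2 of 6 in C5.2 (17.4% of all genes), doxorubicin 1 of 6 (3.26%) and both drugs 1 of 6 (21.0%). On its brightest probe set CCNA2 stayed within 0.15 of vehicle under all 3 treatments there (adjusted p of at least 0.704). The second probe set differed by 0.37 ± 0.14 with both drugs (adjusted p = 0.0637) and was 0.58 ± 0.14 higher with both than with rapamycin (adjusted p = 0.0118). CDK1 was 0.29 ± 0.31 higher with doxorubicin, 0.35 ± 0.31 with rapamycin and 0.80 ± 0.31 with both drugs, with adjusted p of 0.759, 0.459 and 0.0689. The rapamycin difference passed with the number as a block (block adjusted p = 0.042, 44.2% of all genes called), and numbers were not shown to pair vehicle with both drugs. On the second and the third probe set of CDK1 the rapamycin difference was only 0.11 ± 0.22 and 0.07 ± 0.23 (limma adjusted p without the block = 0.784 and 0.871). Experiment 2 stood apart: its CDK1 read 6.70, 6.73 and 7.02 with doxorubicin, rapamycin and both, while the other 4 combined arrays read 7.90 to 8.74. Without the 4 arrays of experiment 2 the adjusted p of the combined difference was 0.00112. Over all probe sets tested, the second and the third probe set of CDK1 rose with both drugs, by 0.80 ± 0.22 and 0.72 ± 0.23 (adjusted p = 0.0155 and 0.0309).

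The CCNB1 results in HB4a and C5.2 depended on the probe set. The brightest one gave the values above. The second, dimmer one differed by -0.09 ± 0.14 with rapamycin in C5.2 (adjusted p = 0.695) and rose with both drugs, by 0.50 ± 0.14 in C5.2 (adjusted p = 0.0145) and by 0.41 ± 0.12 in HB4a (adjusted p = 0.0241). In SKBR3 both probe sets fell with rapamycin and with both drugs.

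**Figure D2:**
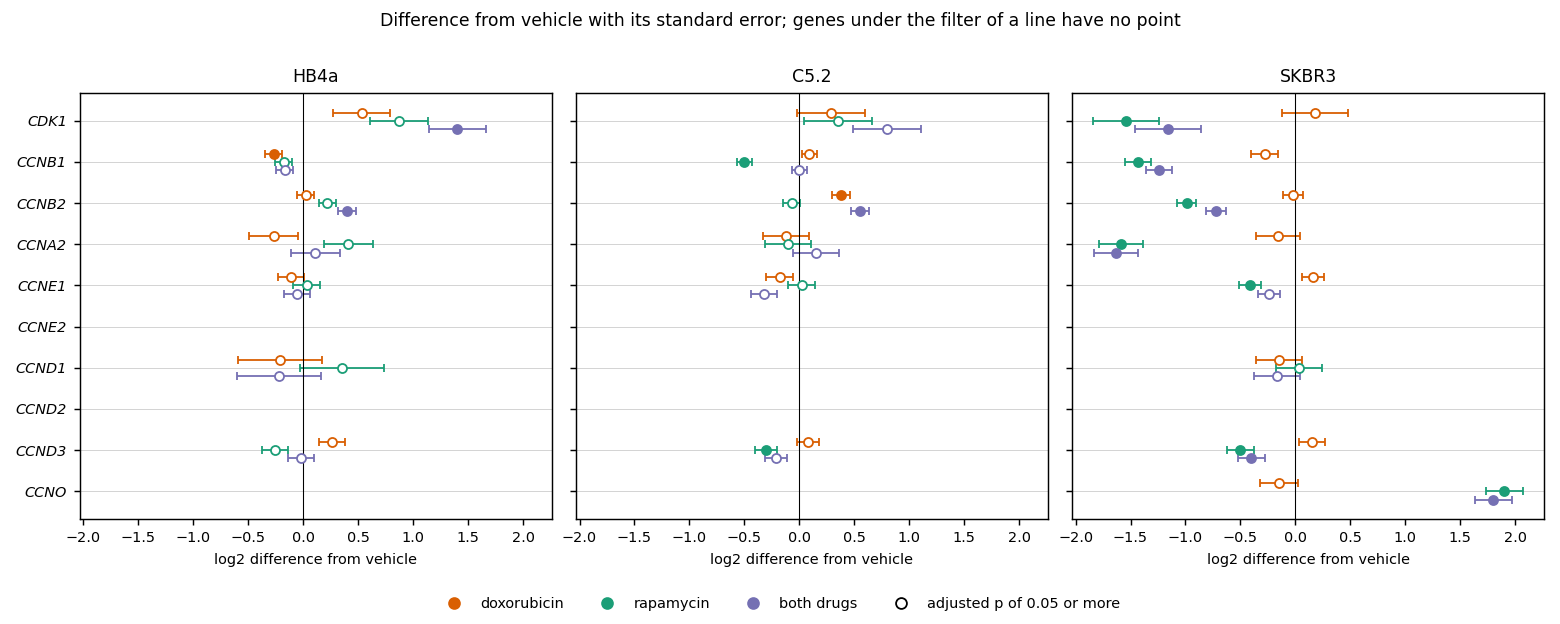
Log2 difference from vehicle (x axis) of each gene past the filter in HB4a, C5.2 and SKBR3, with the standard error from limma; filled points had an adjusted p under 0.05. In SKBR3 rapamycin and both drugs put CDK1, CCNB1 and CCNA2 more than 1 unit below vehicle, while CDK1 lies 1.40 above it with both drugs in HB4a.

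The E-type cyclins, which work with CDK2 at the start of S phase, were read at very different brightness. CCNE1 fell with rapamycin in SKBR3, from 6.23, 6.19, 6.09, 6.14 and 5.96 to 5.86, 5.77, 5.76, 5.55 and 5.63. The groups did not overlap, and the fall was 0.41 ± 0.10 (adjusted p = 0.00675). With both drugs CCNE1 differed by -0.24 ± 0.10 in SKBR3 (adjusted p = 0.0867), which passed with the number as a block (0.0107, 50.5% of all genes called). In C5.2 it differed by -0.32 ± 0.12 with both drugs (adjusted p = 0.0541), and in HB4a its 3 differences from vehicle lay within 0.11 of 0. The smallest adjusted p of CCNE1 over the remaining treatments of HB4a and C5.2 against vehicle was 0.532.

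CCNE2 stayed under the filter in all lines, so its changes were not tested in the first fit. In SKBR3 it averaged 2.07 with vehicle, 2.39 with doxorubicin, 0.83 with rapamycin and 0.84 with both drugs. Of the latter groups 5 and 4 arrays did not exceed the median of their own array, which served as the background level. With such values of the treated arrays raised to that median, the CCNE2 mean was 0.57 lower with rapamycin and 0.49 lower with both drugs than with vehicle. The vehicle arrays read 3.15, 1.21, 1.52, 2.41 and 2.08, and 1 of them did not exceed its array median. The rapamycin arrays reached 1.21 and the combined arrays 1.72, so the ranges met or overlapped and no test is given. In C5.2 it read 3.98, 2.82, 4.26, 3.45 and 3.33 with vehicle and 2.32, 2.37, 3.11, 3.06 and 2.94 with doxorubicin, lower in each experiment. That difference of -0.81 had an adjusted p of 0.234 when the filter was lowered to log2 3 (3.22% of all genes called), and 0.00374 with the number as a block in addition (14.4%). HB4a showed a difference of similar size with doxorubicin, -0.73, with means of 1.80 against 2.53 with vehicle and 4 of 5 numbers lower. CCNE2 did not pass the filter of log2 3 there, and 2 of the doxorubicin arrays did not exceed their array median, so no test is given.

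Among the D-type cyclins, which link growth signals to CDK4 and CDK6, CCND1 was called for no treatment in HB4a or SKBR3, and it was under the filter in C5.2. In SKBR3 it averaged 6.94 (SD 0.33) with vehicle, 6.79 (SD 0.38) with doxorubicin, 6.97 (SD 0.37) with rapamycin and 6.77 (SD 0.33) with both. The rapamycin difference was 0.03 ± 0.21 (adjusted p = 0.952), beside the fall of CCNA2 on the same arrays. In HB4a the differences were -0.21, 0.35 and -0.22 with doxorubicin, rapamycin and both, each ± 0.38 (adjusted p of 0.793, 0.74 and 0.756). The arrays there spread from 4.60 to 7.04, so changes of this size could not be resolved in HB4a.

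CCND3 fell with rapamycin in SKBR3 and C5.2. In SKBR3 it read 5.25, 5.76, 5.57, 5.55 and 5.63 with vehicle and 5.02, 4.84, 5.14, 5.02 and 5.23 with rapamycin, a fall of 0.50 ± 0.12 without overlap (adjusted p = 0.00417). With both drugs it fell by 0.40 ± 0.12 (adjusted p = 0.0185), a call lost without the combined array 2 (0.0614). In C5.2 CCND3 went from between 6.39 and 6.70 to between 5.96 and 6.37 with rapamycin and fell by 0.30 ± 0.10 (adjusted p = 0.0359). This call was lost without any 1 of 5 arrays (rapamycin 1, 3 or 4, vehicle 2 or 6), with adjusted p up to 0.111. In HB4a the rapamycin difference was -0.26 ± 0.12 (adjusted p = 0.317). CCND3 was 0.26 ± 0.12 higher with doxorubicin there (adjusted p = 0.188), which passed with the number as a block (0.0357, 32.7% of all genes called).

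CCND2 was clearly above background in C5.2 alone, and there it was lower with rapamycin in every experiment. Vehicle arrays of C5.2 read 4.31, 3.85, 4.67, 5.03 and 5.52, and rapamycin arrays 3.59, 2.55, 3.26, 3.93 and 4.52. The ranges overlap, since in both groups experiment 2 was lowest and experiment 6 highest, while each experiment shows a drop. The mean difference was -1.11, or 2.15-fold, with an adjusted p of 0.0822 at a filter of log2 3 (11.9% of all genes called) and of 3.84e-07 with the number as a block in addition (34.5%). With both drugs the arrays read 3.19, 2.12, 3.24, 3.43 and 4.08, and CCND2 fell by 1.46 at the filter of log2 3 (adjusted p = 0.0174, 15.9% of all genes called). Against doxorubicin alone the combined arrays differed by -1.32 (adjusted p = 0.0445, 9.11% of all genes called, and 6.81e-08 with the block in addition, 29.8%), and doxorubicin alone differed from vehicle by -0.14 (adjusted p = 0.932). A second probe set averaged 3.73 with vehicle, 3.53 with doxorubicin, 2.79 with rapamycin and 2.50 with both. The third and the fourth lay at or under the array median on every C5.2 array, with vehicle means of 1.29 and 0.77, and did not read the gene there.

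**Figure D3:**
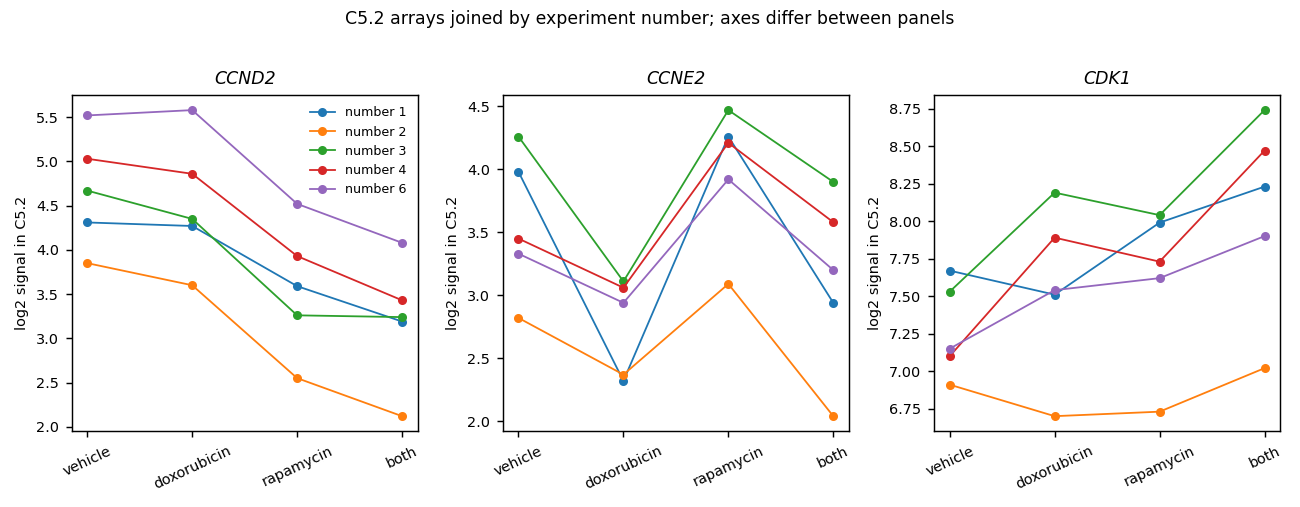
Log2 signal of CCND2, CCNE2 and CDK1 in C5.2 under the 4 treatments (x axis), 1 line for each of the 5 experiment numbers. The CCND2 lines run side by side and drop with rapamycin and both drugs, the CCNE2 lines dip with doxorubicin, and experiment 2 is lowest for CDK1 in all 4 groups.

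CCNO, an atypical cyclin best known for the amplification of centrioles in multiciliated cells, went the opposite way in SKBR3. It read 3.56, 4.15, 4.08, 3.79 and 4.07 with vehicle, 5.57, 5.76, 6.06, 6.12 and 5.61 with rapamycin and 5.59, 5.41, 5.71, 5.65 and 6.32 with both drugs. Every rapamycin-treated array lay more than 1 unit above every array without rapamycin. The rises were 1.90 ± 0.17, which is 3.72-fold, and 1.80 ± 0.17 (adjusted p = 1.07e-07 and 4.27e-07). CCNO passed the filter in SKBR3 only because of these 10 arrays, so its call is not counted with the others. With the filter at log2 3, which it passed in all 3 lines, its adjusted p was 1.18e-07 for rapamycin in SKBR3 (13.3% of all genes called), against 0.571 in HB4a (2.30%) and 0.58 in C5.2, where its mean differed by -0.21 and -0.13.

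Adding the second drug to the first was tested directly. In SKBR3 the combination against doxorubicin alone lowered 6 of the 7 members other than CCNO (22.0% of all genes called): CCNA2 (-1.46), CDK1 (-1.34), CCNB1 (-0.96), CCNB2 (-0.70), CCND3 (-0.55) and CCNE1 (-0.40). Against rapamycin alone it called 0 of 8 (0.552% of all genes called), with 1 member, CCNB2 at 0.26 ± 0.09, at an unadjusted p under 0.05, and limma without the trend called 0. CDK1, 0.38 ± 0.30 higher with both drugs than with rapamycin and higher in every experiment, passed with the number as a block (0.0437, 6.64% of all genes called). In C5.2 the combination raised CCNB1 and CCNB2 over rapamycin, 2 of 6 members (6.39% of all genes called), CCNB2 by 0.61 ± 0.08 (adjusted p = 7.1e-05). Against doxorubicin in C5.2 it called 0 of 6 (13.5% of all genes called), with CCND3 at -0.29 ± 0.10 the 1 member at an unadjusted p under 0.05 (adjusted p = 0.0556, block 0.00109), and 0 again without the trend. With the block CCNB2 and CDK1 were also higher with both drugs than with doxorubicin in C5.2 (0.0432 and 0.00648, 38.0% of all genes called), and CCNE1 was lower and CDK1 higher than with rapamycin (0.00892 and 0.0206, 22.2%). In HB4a 1 of 7 members rose over doxorubicin (2.58% of all genes called), CCNB2 by 0.39 ± 0.08 (adjusted p = 0.0121), and 0 of 7 were called against rapamycin (8.84% of all genes called), with CCNB2 alone at an unadjusted p under 0.05 and 0 calls without the trend.

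A departure of the combination from the sum of the single effects was called for no member and for no gene in any line by limma (0%), and for no member without the trend either. At an unadjusted p under 0.05 there were 1 of 7 members in HB4a, 1 of 6 in C5.2 and 2 of 8 in SKBR3. CCNB1 was among them in each line, at 0.28 ± 0.11, 0.41 ± 0.09 and 0.47 ± 0.17 above the sum, and CCNB2 in SKBR3 at 0.28 ± 0.13. The standard errors of CDK1 in this contrast were 0.37 to 0.43. Since even the CCNB1 departure of 0.41 ± 0.09 in C5.2 was not called, CDK1 departures well over their standard error could also go uncalled.

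Without drugs, the lines differed in which D-type cyclins they expressed. CCND1 read 6.37, 6.94, 5.2, 5.94 and 5.86 in HB4a, 3.2, 2.80, 3.12, 3.47 and 3.46 in C5.2 and 6.58, 6.60, 7.2, 7.29 and 7.03 in SKBR3. C5.2 minus HB4a was -2.85 ± 0.33 and SKBR3 minus C5.2 was 3.73 ± 0.22 (adjusted p = 2.32e-09 and 3.12e-18), and its second probe set gave -2.61 and 2.94. CCND1 passed the filter of these fits only through the line with the higher level, while at log2 3 it passed in C5.2 too, with adjusted p of 2.27e-09 and 2.7e-18 (49.8% and 75.3% of all genes called). CCND2 had the mirror pattern: 1.71, 1.65, 1.38, 1.15 and 2.02 in HB4a, at most 0.55 in SKBR3, and between 3.85 and 5.52 in C5.2. It was at least 2.93 higher in C5.2 than in HB4a and at least 3.18 higher than in SKBR3. It passed the filter of log2 3 only through C5.2, so no test is given. CCND3 averaged 7.01 ± 0.09 (SD) in HB4a, 6.48 ± 0.12 (SD) in the HER-2 transfected C5.2 and 5.55 ± 0.19 (SD) in SKBR3, and none of the 3 groups overlapped another.

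CDK1 was higher in the order HB4a, C5.2 and SKBR3, with means of 6.2, 7.27 and 8.14. It was 1.07 ± 0.30 higher in C5.2 than in HB4a, 1.94 ± 0.29 higher in SKBR3 than in HB4a, and 0.87 ± 0.32 higher in SKBR3 than in C5.2 (adjusted p = 0.0028, 2.74e-07 and 0.0127). The last difference had an adjusted p of 0.0504 without SKBR3 vehicle array 1, and was 0.22 ± 0.27 and 0.33 ± 0.30 on its next 2 probe sets (adjusted p = 0.463 and 0.316). CCNE1 was lowest in C5.2, at 5.15 ± 0.09 (SD) against 6.33 ± 0.23 (SD) in HB4a and 6.12 ± 0.11 (SD) in SKBR3. C5.2 minus HB4a was -1.18 ± 0.12 (adjusted p = 4.44e-11), and SKBR3 did not differ from HB4a beyond the spread (-0.20 ± 0.11, adjusted p = 0.0874). CCNB2 was lower in SKBR3, at 7.46, than in HB4a at 8.24 or C5.2 at 8.33 (differences of -0.78 ± 0.08 and -0.86 ± 0.08, adjusted p = 6.38e-11 and 4.22e-12). The mean of CCNE2 was 1.04 higher in C5.2 than in HB4a, and SKBR3 minus C5.2 was -1.49. CCNE2 passed the filter of log2 3 in C5.2 but in neither other line, so these are given without a test.

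For CCNB1 and CCNA2 the order of the lines was not settled, because their probe sets disagreed. The brightest CCNB1 probe set differed by -1.14 ± 0.10 between SKBR3 and HB4a, and the second one by 0.59 ± 0.13 (adjusted p = 6.96e-05). CCNA2 differed by 0.89 ± 0.22 between SKBR3 and HB4a on the brightest probe set and by -0.13 ± 0.17 on the second. Between C5.2 and HB4a the brightest CCNB1 probe set differed by -0.18 ± 0.07 (adjusted p = 0.0387, lost without any 1 of 6 vehicle arrays, C5.2 1, 3 or 4 and HB4a 2, 4 or 6, with adjusted p up to 0.135) and the second by 0.28 ± 0.13. CCND1 in SKBR3 was 0.88 ± 0.33 above HB4a (adjusted p = 0.0147), a call lost without HB4a vehicle array 3 (0.0703). Its second probe set was 0.34 ± 0.24 above HB4a (adjusted p = 0.201). CCNO differed between SKBR3 and HB4a by -0.43 ± 0.16 (adjusted p = 0.0172), lost without HB4a array 6 (0.0507) or SKBR3 array 1 (0.0697). It passed the filter of this fit only through rapamycin-treated SKBR3 arrays. Its vehicle arrays lay between 3.56 and 4.15 in SKBR3 and between 3.99 and 4.58 in HB4a, so this call carries little weight. In all, 5 of 7 members differed between C5.2 and HB4a, 7 of 8 (CCNO among the 7) between SKBR3 and HB4a and 6 of 8 between SKBR3 and C5.2. Of all genes 49.2%, 77.3% and 78.8% were called in these comparisons, so these counts do not set the members apart from other genes.

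**Figure D4:**
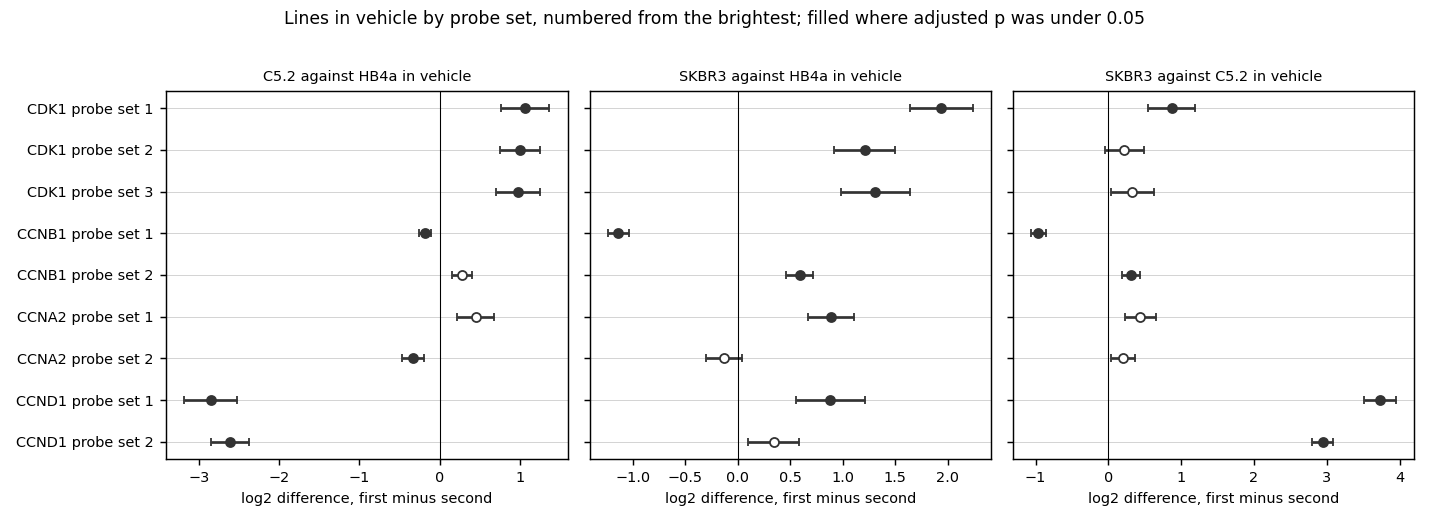
Log2 difference between lines in vehicle (x axis) for each bright probe set of CDK1, CCNB1, CCNA2 and CCND1, numbered from the brightest, with standard errors; filled points had an adjusted p under 0.05. The probe sets of CCND1 lie on the same side in each panel, whereas the CCNB1 probe sets fall on opposite sides of 0 in each panel.

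The responses of the lines were compared in fits with 40 arrays of both lines. Under rapamycin SKBR3 differed from HB4a by -2.41 ± 0.42 for CDK1, -1.99 ± 0.31 for CCNA2, -1.25 ± 0.14 for CCNB1 and -1.21 ± 0.11 for CCNB2. These were 4 of the 7 members other than CCNO (5.03% of all genes called), with adjusted p from 3.76e-09 to 0.00015. Against C5.2 the rapamycin response of SKBR3 differed by -1.89 ± 0.45 for CDK1, -1.49 ± 0.30 for CCNA2, -0.93 ± 0.14 for CCNB1 and -0.92 ± 0.12 for CCNB2, with adjusted p from 2.47e-06 to 0.00731 (6.23% of all genes called). The 2 comparisons share the SKBR3 arrays. With both drugs the same 4 genes differed from HB4a by -2.56, -1.73, -1.07 and -1.13 (9.82% of all genes called) and from C5.2 by -1.96, -1.77, -1.24 and -1.27 (12.3% of all genes called).

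The remaining members gave no such difference in the first fit. CCNE1 differed by -0.44 ± 0.15 under rapamycin between SKBR3 and HB4a and by -0.43 ± 0.15 between SKBR3 and C5.2 (adjusted p = 0.0988 and 0.0814). For CCND3 the corresponding values were -0.24 ± 0.16 and -0.19 ± 0.15, and for CCND1 -0.33 ± 0.46 and -0.04 ± 0.31, with adjusted p of at least 0.441. CCNO, which passed only through SKBR3 with rapamycin, differed by 2.11 ± 0.23 from HB4a and 2.03 ± 0.22 from C5.2. Doxorubicin responses differed for 0 members between SKBR3 and HB4a (3.87% of all genes called) and between SKBR3 and C5.2 (1.47% of all genes called), with 0 and 3 members at an unadjusted p under 0.05 and 0 calls without the trend. Between C5.2 and HB4a, limma called 0 of 7 members for doxorubicin, rapamycin or both (0.101%, 0% and 0.373% of all genes called), with 2, 2 and 0 members at an unadjusted p under 0.05 and 0 calls without the trend. With the number as a block, CCNB1 and CCNB2 differed between C5.2 and HB4a under doxorubicin (both by 0.36, block adjusted p = 0.00886 and 0.0403, 1.97% of all genes called), and CCNB1 under rapamycin (-0.32, 0.0211, 2.53%). The block also called CCNE1 under rapamycin in SKBR3 against HB4a (0.0113, 22.5% of all genes called) and against C5.2 (0.00377, 32.4%), and CCNB1, CCNB2 and CCNE1 under doxorubicin in SKBR3 against C5.2 (-0.37, -0.39 and 0.34, 8.23%).

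**Figure D5:**
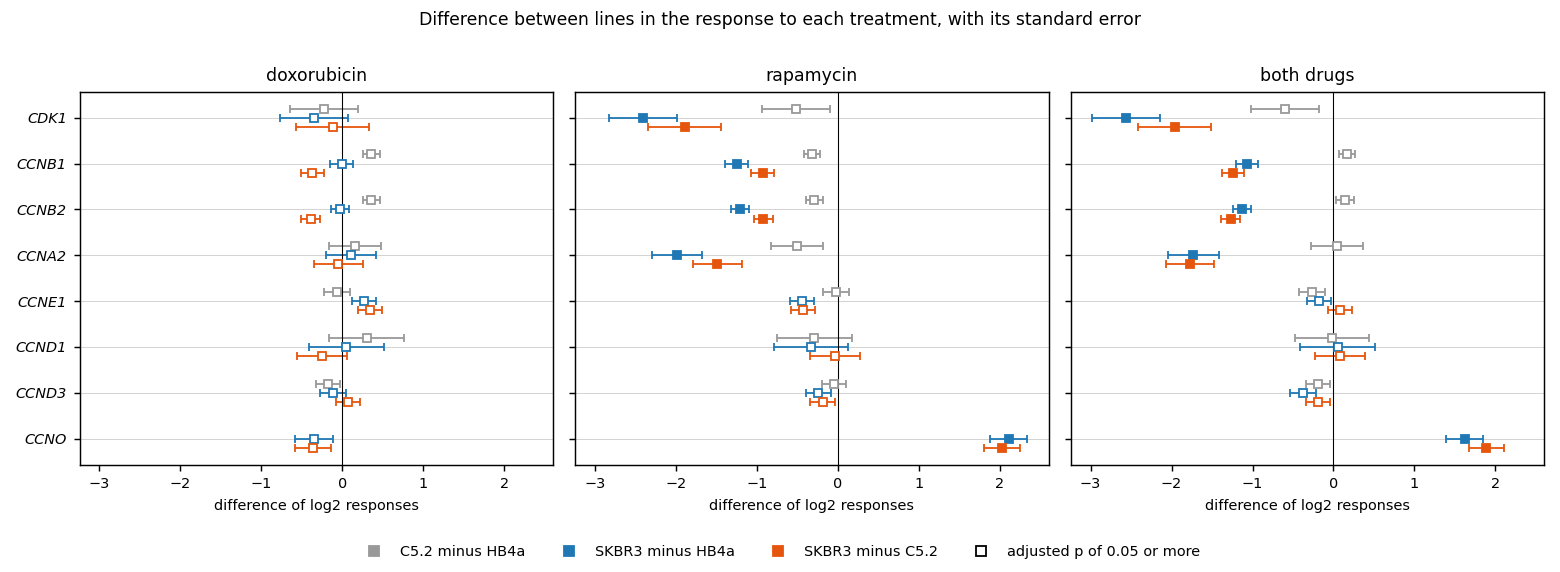
Difference between 2 lines in the log2 response to doxorubicin, rapamycin or both drugs (x axis) for the 8 genes with a test, with standard errors; filled squares had an adjusted p under 0.05. CDK1, CCNB1, CCNB2 and CCNA2 lie left of 0 and CCNO right of 0 where SKBR3 is one of the lines and rapamycin was given, and all squares are open for C5.2 minus HB4a.

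Other genes of the cyclin and CDK machinery were followed through a list of 59, of which 58 had a value. In SKBR3 39 were tested, and rapamycin lowered 14 and raised 1 (10.8% of all genes called lower and 7.48% higher), with a median difference of -0.29 against -0.03 over all genes. The largest falls were those of FOXM1, a transcription factor of G2 genes (-1.39 ± 0.15), FBXO5, an inhibitor of cyclin destruction (-1.32 ± 0.25), and MYBL2, the B-MYB factor of late cell cycle promoters (-1.28 ± 0.11). By role, 3 of 3 tested genes of cyclin destruction fell, 3 of 5 switches of CDK1 phosphorylation, 3 of 6 kinases and subunits, 2 of 4 MuvB, B-MYB and FOXM1 genes 2 of 9 pocket and E2F genes, and 1 of 10 other cyclins, CCNF by 0.76 ± 0.16. The 1 that rose was CDK7, part of the kinase that activates the other CDKs, by 0.57 ± 0.16. Neither of the 2 CDK inhibitors tested was called there. With the number as a block 21 were lower and 4 higher (41.8% of all genes called), among the lower ones the inhibitor CDKN2A (-0.29, block adjusted p = 0.0353).

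In C5.2, of 43 list genes tested, rapamycin lowered 10 and raised 2 (17.4% of all genes called), with CCNG2, an atypical cyclin that FOXO factors are known to induce (0.94 ± 0.26), and MYBL2 and CDC25A, a phosphatase that activates CDKs (-0.67 each), the largest. Doxorubicin raised 3 and lowered 0 of them (3.26% of all genes called): CDKN1A, the p53-induced CDK inhibitor (2.14 ± 0.20), CCNK (0.36) and CKS1B, a small CDK subunit (0.32). With the block, 17 were lower and 6 higher with rapamycin (44.2% of all genes called), and 6 lower and 8 higher with doxorubicin (17.4%). In HB4a, of 41 tested, rapamycin raised 2 and lowered 0 (3.18% of all genes called), WEE1, the kinase that holds CDK1 inactive, by 0.50 ± 0.12 and TFDP2 by 0.50 ± 0.13. Doxorubicin in HB4a raised 4 and lowered 2 (11.4% of all genes called), led by CDKN1A (1.75 ± 0.16) and CDKN1C (-0.99 ± 0.24), and E2F7, a repressor among the E2F factors, rose by 0.73 ± 0.18. With the block, 4 were lower and 5 higher with rapamycin (16.3% of all genes called), and 5 lower and 8 higher with doxorubicin (32.7%). With both drugs 10 rose and 5 fell in HB4a (17.4% of all genes called), 6 rose and 8 fell in C5.2 (21.0%), and 2 rose and 13 fell in SKBR3 (22.0%). In SKBR3 doxorubicin raised 1 of 39 (0.837% of all genes called), E2F2 by 0.65 ± 0.12, and with the block 4 were higher and 1 lower (5.00%).

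CDK1, CCNA2, CCNB1 and CCNB2 were correlated over the arrays of SKBR3, drug groups included. Over its 20 arrays Pearson's r was 0.95 between CCNB1 and CCNB2 and 0.93 between CCNA2 and CDK1. It was 0.92 between CCNA2 and CCNB1 and -0.92 between CCNA2 and CCNO. Group means were not removed, so these r hold the drug differences given above and do not measure variation within groups. CCNE2, although under the filter, followed CDK1 at 0.91. CCND1 did not follow them, with r between -0.01 and 0.09 to the 4 genes, and CCND2, at background there, had r between -0.46 and -0.26. In HB4a the pairs were looser, with 0.42 between CCNA2 and CDK1, and CCNA2 ran against CCND3 at -0.85. In C5.2 CCNA2 and CDK1 correlated at 0.77 and CCNE1 ran against CDK1 at -0.74. Over all 60 arrays, after each line's mean was subtracted, the genes most like CDK1 among 7706 were NUF2 (0.92), RAD51AP1 (0.92) and MZT1 (0.91). Those most like CCNB1 were BIRC5 (0.93), KIF20A (0.90) and FAM83D (0.90), those most like CCNE2 were DEK, USP1 and NT5C3A (0.87 each), and those most like CCND1 were SLC20A1 (0.80), AFG2B (0.80) and PXDN (0.77).

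Part of the variation between arrays followed the experiment and not the drug, though not to the same extent for each member. In SKBR3, CDK1 lay above its group mean in all 4 groups of experiment 4 (by 0.50 on average) and experiment 1 (0.44), and below it in all 4 of experiment 6 (-0.65) and experiment 2 (-0.36). CCNA2 went the same way in experiments 1 and 6 (0.33 and -0.40). The B-type cyclins showed almost no such offset in experiments 1 and 6, with -0.01 and -0.02 for CCNB1 and 0.03 and -0.03 for CCNB2. In C5.2, experiment 2 lay below the group mean in all 4 groups for CDK1 (-0.79), CCND2 (-0.97), CCNE2 (-0.78) and CCND1 (-0.48), and experiment 6 above it for CCND2 (0.93). The labels do not say what the numbers share beyond the experiment, and the part of culture or array handling in these offsets was not tested.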

How the data were processed

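The authors deposited log2 values from RMA, named without a version in the submitters' processing notes. Base 2 was read from their range (-0.60 to 13.08). The sources used here do not say if the 60 arrays were summarised together. Symbols came from the platform's annotation: 41091 probe sets carried 1 symbol, 1801 carried several and were left out, and a gene's probe set of highest mean stood for it. Groups came from the labels, where the vehicle group is read from the DMSO source name and drug doses as nM. The test was limma's moderated one (version 3.58.1, run under R 4.3.3), 2-sided and with an intensity trend, and p-values were adjusted by Benjamini-Hochberg over all genes tested, with 20 arrays within a line and 40 between lines. In the first fit the p-values rest on the spread of the 5 arrays within each group, and with the block on the spread left after the number. Experiment numbers were taken as pairs where every pair's residuals correlated above 0.1: all 5 SKBR3 comparisons, 4 of 5 in C5.2 (not vehicle against both) and 2 of 5 in HB4a (not those with both). The block was fitted over all arrays of a fit, also those of comparisons not taken as pairs. The code was tested on simulated data. Promoter windows of 300 bases, 250 of them before the start, came from RefSeq. Tables and figures used Python 3.11.15, pandas 2.3.3, numpy 2.4.6 and matplotlib 3.10.9. Named were all members, per comparison up to 3 pathway genes by size of change (and single genes chosen after their values were seen), and the 3 most correlated genes of 4 members. The members, lists and tests were chosen with earlier results of these data known. The filter at log2 3, alone and with the block, and the block without arrays that stood apart were added after the data were seen. No sample was left out of the first fit.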

Additional observations from a re-analysis of the deposited data

Results flagged for a closer look

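In 5 of 120 gene and group combinations 1 array lay far from the other 4 by Dixon's test, and chance alone gives such a gap in about 1 of 20 groups. They were CCNA2 at 6.22 in HB4a with doxorubicin (array 1, next 5.56), CCNB1 at 9.58 in HB4a with both drugs (array 6, next 9.39), CCNB1 at 6.98 in SKBR3 with both drugs (array 4, next 7.21), CCNB2 at 8.57 in C5.2 with both drugs (array 2, next 8.90) and CCND2 at 1.37 in HB4a with both drugs (array 2, next 1.21, both at background).

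Responses that differed between lines in the test of the difference itself numbered 16 for CDK1, CCNA2, CCNB1 and CCNB2. The 4 values of CCNO beside them are a description, since it passed the filter only through rapamycin-treated SKBR3 arrays. For rapamycin, SKBR3 minus HB4a gave -1.99 for CCNA2, -1.25 for CCNB1, -1.21 for CCNB2, 2.11 for CCNO and -2.41 for CDK1, and SKBR3 minus C5.2 gave -1.49, -0.93, -0.92, 2.03 and -1.89 in the same order. For both drugs, SKBR3 minus HB4a gave -1.73 for CCNA2, -1.07 for CCNB1, -1.13 for CCNB2, 1.62 for CCNO and -2.56 for CDK1, and SKBR3 minus C5.2 gave -1.77, -1.24, -1.27, 1.89 and -1.96. The limma adjusted p of the 16 differences ranged from 1.09e-09 to 0.00731. Of all genes tested, 5.03% and 9.82% were called for rapamycin and both drugs in SKBR3 minus HB4a, and 6.23% and 12.3% in SKBR3 minus C5.2.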

How the results depend on the processing

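Of 68 member calls, 61 survived leaving out each array in turn, and none changed direction in those fits. Counts of calls without 1 array ranged from 2 to 4 for treatments against vehicle in HB4a, 3 to 6 in C5.2 and 12 to 13 in SKBR3, from 1 to 2, 2 to 5 and 7 to 7 for both drugs against each drug, 16 to 19 for the lines and 20 to 21 for response differences. With the replicate block, all 68 kept their call, and the counts became 9 (from 3) for treatments in HB4a, 5 (from 1) for both against each drug in HB4a, 8 (from 4) for treatments in C5.2 and 7 (from 2) for both against each drug in C5.2, where not every comparison is paired. Whether equal numbers of different lines belong together was not examined. Between lines in vehicle a block by number added CCNA2 in C5.2 against HB4a (0.0368) and SKBR3 against C5.2 (0.0168) and CCNE1 in SKBR3 against HB4a (0.0479). Between C5.2 and HB4a the second CCNA2 probe set differed by -0.33 ± 0.14, opposite in sign to the brightest one at 0.45 ± 0.23. With the block and a filter at log2 3 the counts for HB4a and C5.2 above were 8, 4, 11 and 11, and 36 (from 20) for response differences. With the block and without the arrays that stood apart (experiment 1 of SKBR3, 2 of C5.2, 1 of HB4a, and the HB4a rapamycin array 4) they were 6, 2, 9 and 7. Without those arrays and without the block, both against each drug in C5.2 gave 5. In HB4a the combined array 2 correlated with number 3 of the other groups (at 0.545 or more) and the combined array 3 with number 2 (at 0.679 or more), a hint from the data only.

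With the mean of all probe sets, dim ones included, treatment calls fell to 1 in HB4a and 8 (from 13) in SKBR3, both-against-single calls to 0, 1 and 4 (from 7) in HB4a, C5.2 and SKBR3, and line calls to 9 (from 18), since fewer members passed the filter; CCNB1 between C5.2 and HB4a reversed to 0.05. A filter at log2 7 left 6 and 3 calls in SKBR3 and 12 response differences, again with fewer members tested. Array centring and quantile normalization each lost 3 of 68 calls and turned none: CCNB1 with doxorubicin in HB4a (adjusted p = 0.109), CCNB1 between C5.2 and HB4a (0.21) and CCNO between SKBR3 and HB4a (0.172) under centring, and CCND3 with rapamycin in C5.2 (0.18), CCND3 with both drugs (0.0901) and CCNE1 between both and doxorubicin in SKBR3 under quantile normalization. Fits without the trend, without the filter and with all 60 arrays each lost 2 of 68. Scaling moved the median of all genes by up to 0.19 between SKBR3 and HB4a and 0.14 between SKBR3 and C5.2. Genes under log2 5 are limited by their small signal over background.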
